A study of Mus musculus with 10 samples.

Results

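The 10 genes followed here belong to the response to low oxygen and were measured in CD8+ T cells that had met tumor cells with or without sodium acetate. They are Hif1a, Egln1, Egln3, Vegfa, Bnip3, Higd1a, Ankrd37, Ndrg1, P4ha1 and Ero1a, chosen by name as hypoxia and HIF1 target genes, out of 57825 genes in the deposited expression table. All 10 passed the filter on low values that left 15710 genes for testing. The T cells came from spleens of female Balb/c mice (the study used animals of 7 to 8 weeks) and spent 12 h on bound anti-CD3 with anti-CD28 and IL-2, followed by 24 h with or without 5 mM sodium acetate (NaAc) and by 48 h beside 4T1, a carcinoma line from the mouse mammary gland. RNA was taken from purified CD8+ T cells, which the labels place at day 3. There were 5 samples without acetate (CD8+4T1) and 5 with it (CD8+4T1+NaAc), so that activation and tumor cell contact were common to both groups and acetate was the labelled difference. T cells kept away from 4T1 cells were not analysed here. No source used here says whether the 5 samples of a group came from separate animals or cultures, so p-values measure the spread between these samples, which may be technical.

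Cells read oxygen through the alpha subunits of the hypoxia-inducible factors (HIFs). When oxygen is plentiful, prolyl hydroxylases of the Egln family modify the alpha subunit, the Vhl ubiquitin ligase binds it, and it is degraded. When oxygen falls, or when hydroxylase activity drops for other reasons, the alpha subunit pairs with Arnt and binds DNA at sites with the core letters ACGTG or GCGTG. In T cells, receptor signalling also raises Hif1a, and glycolytic enzymes are among its best known targets.

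Levels are given as FPKM, the number of sequenced fragments per length of the gene and scaled to the fragments of the sample, which can be compared between genes. The product of FPKM and gene length moved in equal steps within a sample, 1 per fragment, which gave the fragment numbers. The samples rested on between 16306447 and 18853726 fragments. The listed genes held 95.5% to 97.9% of these fragments in CD8+4T1 samples and 89.8% to 92.1% in CD8+4T1+NaAc samples. Fold changes are on the log2(FPKM + 0.1) scale, CD8+4T1+NaAc minus CD8+4T1, and come with the standard error (SE) and the Benjamini-Hochberg adjusted p over all 15710 genes from limma, and a gene counts as called at an adjusted p under 0.05. Replicate 1 of CD8+4T1+NaAc stood apart with 20233 genes above 0, against 22291 to 25088 in the other 9 samples.

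The transcript of the regulator itself was not called, while 8 of the genes that it is known to control fell with acetate. Egln3, Bnip3, Higd1a, Ankrd37, P4ha1, Ero1a, Ndrg1 and Egln1 were called lower, by 0.38 to 1.23 on the log2 scale, and in each of them every CD8+4T1+NaAc sample lay under every CD8+4T1 sample. Vegfa was not called, and none of the 10 was called higher by limma, also at an unadjusted p under 0.05 or with voom on the fragments. Of all genes tested, 19.0% were called lower and 13.3% had every CD8+4T1+NaAc sample under every CD8+4T1 sample, while 17.6% were called higher and 13.1% had the groups apart in that direction. The median log2 fold change was -0.60 over the 10 genes and -0.02 over all genes tested. In RNA from many cells, fewer cells that express a gene and less RNA per cell cannot be told apart.

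Promoter sequences are shown for the regulator and for the 4 genes with the largest falls, because these genes moved differently and are linked in textbooks through the HIF core letters. RefSeq on GRCm38.p6 gave an upstream window of 250 bases for 9 of the 10 genes, with 2 start sites for Vegfa. Each line is 5′ to 3′ on the gene's own strand and ends at the base before the start of the transcript. Capitals mark ACGTG or GCGTG on either strand, so that the opposite strand appears as CACGT or CACGC, and CACGTG counts as a match on both strands.
Hif1a, chr12:73907617-73907866, plus strand: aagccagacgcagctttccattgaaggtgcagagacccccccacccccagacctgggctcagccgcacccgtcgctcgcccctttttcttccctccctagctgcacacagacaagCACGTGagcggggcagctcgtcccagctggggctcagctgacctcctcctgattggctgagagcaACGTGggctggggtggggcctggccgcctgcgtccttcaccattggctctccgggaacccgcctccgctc
Egln3, chr12:54203875-54204124, minus strand: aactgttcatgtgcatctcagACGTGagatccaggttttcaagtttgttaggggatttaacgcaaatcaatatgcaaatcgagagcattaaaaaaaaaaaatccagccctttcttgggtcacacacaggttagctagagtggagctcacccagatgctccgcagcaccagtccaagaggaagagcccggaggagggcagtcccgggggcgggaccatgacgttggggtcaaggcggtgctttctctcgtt
Bnip3, chr7:138909507-138909756, minus strand: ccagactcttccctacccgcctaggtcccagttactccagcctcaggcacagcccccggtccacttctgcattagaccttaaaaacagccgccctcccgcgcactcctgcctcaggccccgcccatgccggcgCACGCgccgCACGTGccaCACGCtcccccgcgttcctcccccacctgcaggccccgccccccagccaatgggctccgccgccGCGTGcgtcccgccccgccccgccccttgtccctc
Higd1a, chr9:121857797-121858046, minus strand: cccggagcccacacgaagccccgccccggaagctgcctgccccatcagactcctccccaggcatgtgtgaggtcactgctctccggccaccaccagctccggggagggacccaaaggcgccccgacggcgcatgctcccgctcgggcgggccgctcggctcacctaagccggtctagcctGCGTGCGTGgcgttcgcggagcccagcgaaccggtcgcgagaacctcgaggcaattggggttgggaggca
Ankrd37, chr8:45999851-46000100, minus strand: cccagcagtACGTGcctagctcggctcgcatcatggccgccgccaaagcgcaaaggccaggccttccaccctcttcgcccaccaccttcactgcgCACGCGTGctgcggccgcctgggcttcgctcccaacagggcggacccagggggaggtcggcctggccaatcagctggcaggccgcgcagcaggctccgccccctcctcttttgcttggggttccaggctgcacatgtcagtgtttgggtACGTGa

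The 5 windows hold 3 matches for Hif1a, 1 for Egln3, 5 for Bnip3, 2 for Higd1a and 4 for Ankrd37. Every one of the 9 genes with a window had at least 1 match in a window, although the first of the Vegfa windows held none. ACGTG was found for 8 of these genes and GCGTG for 7, on either strand. Of all 32851 windows of this length in the table, 38.6% held either word, 16.6% held ACGTG and 28.2% held GCGTG. In 16.7% of these windows there were 2 or more matches of either word. These shares are per window, whereas the counts for the 9 genes are per gene. A match is a run of letters and not a measured binding site, and the relation of matches to the changes was not tested.

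Hif1a encodes the oxygen-regulated alpha subunit. It stood at 67.6, 74.1, 66.3, 56.0 and 67.5 FPKM in the CD8+4T1 replicates 1 to 5 and at 60.8, 64.3, 71.9, 75.4 and 72.3 FPKM in the CD8+4T1+NaAc replicates. The groups overlapped over most of their range, and the lowest sample of all belonged to CD8+4T1. The means were 66.3 ± 6.54 and 68.9 ± 6.11 FPKM (SD, n = 5 each), with a log2 fold change of 0.06 (SE 0.08, limma adjusted p = 0.626) on 5437 to 7625 fragments per sample. With the same total it was 0.23 (limma adjusted p = 0.0552) and with T cell marker scaling 0.23 (limma adjusted p = 0.0672), 2 rescalings that move the median of all genes to 0.15. This is the transcript, and the protein, whose stability carries most of the oxygen control, was not measured.

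Egln3 and Egln1 encode prolyl hydroxylases that mark HIF alpha subunits for degradation and that are themselves HIF targets. Egln3 had the largest fall of the 10 genes. It was at 26.6, 33.7, 28.9, 27.7 and 34.9 FPKM in CD8+4T1 and at 14.7, 13.0, 13.6, 13.0 and 10.4 FPKM in CD8+4T1+NaAc. The highest acetate sample was well under the lowest sample without acetate, and the acetate mean was 42.6% of the other, with a log2 fold change of -1.23 (SE 0.10, limma adjusted p = 2.5e-05). Egln1 was at 48.8, 47.2, 43.5, 42.0 and 51.1 FPKM in CD8+4T1 and at 36.4, 32.3, 37.2, 32.6 and 39.7 FPKM in CD8+4T1+NaAc. Its groups came closer to each other, with replicate 5 of CD8+4T1+NaAc just under replicate 4 of CD8+4T1. Egln1 had a log2 fold change of -0.38 (SE 0.07, limma adjusted p = 0.0023), which was not called when every sample was set to the same total (-0.21, adjusted p = 0.0709) or scaled to T cell markers (-0.21, adjusted p = 0.135).

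Bnip3, a receptor on the outer mitochondrial membrane that marks mitochondria for autophagy, was lower in every acetate sample than in any sample without acetate. It stood at 41.9, 57.6, 51.4, 47.5 and 59.1 FPKM in CD8+4T1 and at 27.1, 21.6, 23.1, 24.9 and 21.2 FPKM in CD8+4T1+NaAc. The acetate samples lay in a narrower band of FPKM, around a lower mean. As a share of the mean, the SD was 13.9% in CD8+4T1 and 10.4% in CD8+4T1+NaAc. The mean fell from 51.5 ± 7.15 to 23.6 ± 2.46 FPKM (SD, n = 5 each), a log2 fold change of -1.12 (SE 0.10, limma adjusted p = 3.4e-05). With Egln3 it was 1 of 2 genes among the 10 called with a log2 fold change under -1, a class that held 1.60% of all genes tested, against 4.87% called with a log2 fold change over 1. With the same total and with T cell marker scaling Bnip3 was at -0.94 and Egln3 at -1.05, so that 1 of the 10 genes remained under -1.

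Higd1a, a small protein of the inner mitochondrial membrane that associates with the respiratory chain, was at 32.0, 42.6, 40.1, 36.6 and 39.8 FPKM in CD8+4T1 and at 17.3, 19.5, 21.5, 18.9 and 21.6 FPKM in CD8+4T1+NaAc. Replicate 1 was the lowest sample within each group, and the groups were apart. The log2 fold change was -0.95 (SE 0.09, limma adjusted p = 3.4e-05). A processed pseudogene with the same protein annotation, Gm9790, was listed at a mean of 2.82 FPKM in CD8+4T1 and 1.27 FPKM in CD8+4T1+NaAc, so some reads of Higd1a may be shared with it.

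Ankrd37, an ankyrin repeat protein whose gene is a known HIF1 target, was the lowest of the 10. It was at 8.67, 7.41, 7.09, 6.27 and 6.22 FPKM in CD8+4T1 and at 3.65, 4.41, 4.61, 4.26 and 3.01 FPKM in CD8+4T1+NaAc. No acetate sample reached the lowest sample without acetate, although these values rest on 77 to 223 fragments per sample. The log2 fold change was -0.83 (SE 0.13, limma adjusted p = 0.00062). Ankrd37 overlaps Ufsp2 on the opposite strand, and whether the authors' counting used strand is not given in the sources used here. Ufsp2 itself was at a mean of 4.42 FPKM in CD8+4T1 and 4.37 FPKM in CD8+4T1+NaAc. A processed pseudogene with the same protein annotation, Gm28188, was listed at a mean of 1.51 FPKM in CD8+4T1 and 1.93 FPKM in CD8+4T1+NaAc, so reads of Ankrd37 may be shared with it too.

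P4ha1 and Ero1a act on proteins in the endoplasmic reticulum. P4ha1, the catalytic subunit of a collagen prolyl hydroxylase, was at 70.8, 63.1, 63.9, 63.9 and 69.8 FPKM in CD8+4T1 and at 48.04, 41.0, 41.9, 40.0 and 41.7 FPKM in CD8+4T1+NaAc. Acetate replicates 2 to 5 lay close together with replicate 1 above them, and the log2 fold change was -0.64 (SE 0.06, limma adjusted p = 3.7e-05). Ero1a, the oxidase that supplies disulfide bonds through protein disulfide isomerase, was at 58.9, 64.4, 52.8, 47.8 and 61.3 FPKM in CD8+4T1 and at 42.9, 39.0, 38.8, 36.9 and 35.1 FPKM in CD8+4T1+NaAc. The lowest sample without acetate was still above the highest with it. The log2 fold change of Ero1a was -0.56 (SE 0.09, limma adjusted p = 0.00055).

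Ndrg1, a cytoplasmic protein induced by stress and differentiation, was at 43.7, 45.0, 39.7, 39.6 and 44.9 FPKM in CD8+4T1 and at 28.7, 30.3, 29.0, 31.5 and 27.6 FPKM in CD8+4T1+NaAc. Both groups were tight, and the mean fell from 42.6 ± 2.74 to 29.4 ± 1.49 FPKM (SD, n = 5 each). The log2 fold change was -0.53 (SE 0.06, limma adjusted p = 7.0e-05).

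Vegfa, the secreted growth factor that drives vessel growth, was the target whose groups overlapped. It was at 40.1, 30.7, 29.6, 30.8 and 31.3 FPKM in CD8+4T1 and at 34.6, 27.2, 21.3, 23.95 and 18.0 FPKM in CD8+4T1+NaAc. Replicate 1 was the highest of each group, and replicate 1 of CD8+4T1+NaAc was the only acetate sample inside the range of the other group. The log2 fold change was -0.40 (SE 0.16, limma adjusted p = 0.0675). Without replicate 1 of CD8+4T1+NaAc it was -0.53 (limma adjusted p = 0.0069), and without replicate 1 of both groups it was -0.45 (limma adjusted p = 0.0097), which are both called. The call also appeared with the replicate number as a block (-0.40, limma adjusted p = 0.0186) and among protein-coding genes alone (-0.40, adjusted p = 0.0382). The fall was smaller with the same total (-0.23, limma adjusted p = 0.316) and with T cell marker scaling (-0.23, limma adjusted p = 0.434).

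**Figure D1:**
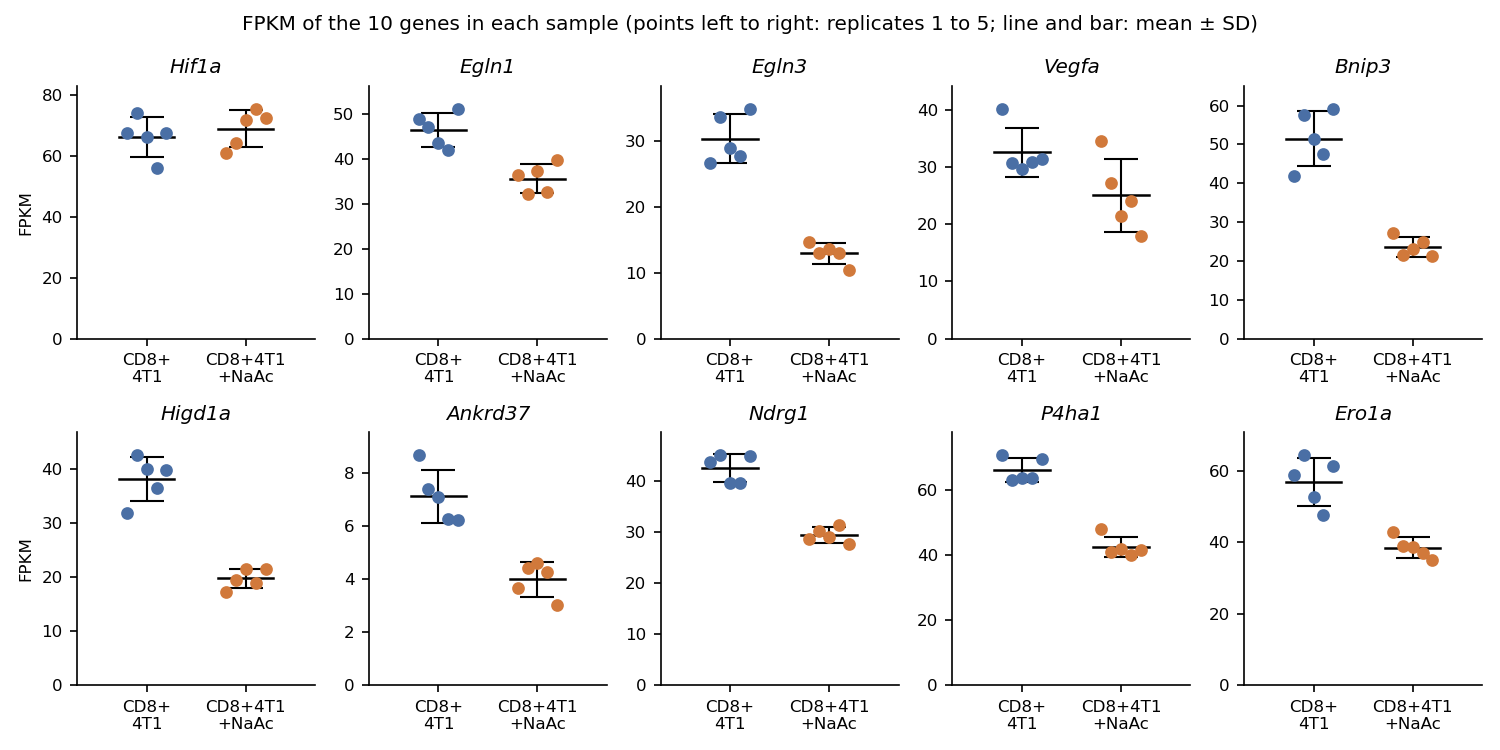
FPKM of each of the 10 genes in each sample, CD8+4T1 in blue and CD8+4T1+NaAc in orange, with a black line at the mean, bars of 1 SD (n = 5) and an axis of its own that starts at 0 for each gene. The groups are apart in 8 panels, and they overlap for Hif1a and Vegfa.

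The order of levels changed with these falls. In CD8+4T1, from Hif1a at 66.3 FPKM down to Egln3 at 30.4 FPKM, the range of each gene overlapped that of the next one. Only Ankrd37 at 7.13 FPKM lay apart. Within single samples, Ero1a was above Bnip3 and Egln1 above Ndrg1 in every CD8+4T1 sample, while the other overlapping neighbours changed order between samples. In CD8+4T1+NaAc, Hif1a at 68.9 FPKM stood clear of P4ha1 at 42.5 FPKM, Egln1 stood clear of Ndrg1, and Egln3 at 12.9 FPKM stood clear of Higd1a above it and of Ankrd37 below it. Relative to Hif1a in the same sample, the median ratio of Egln3 went from 0.454 to 0.190, that of Bnip3 from 0.776 to 0.330 and that of P4ha1 from 1.03 to 0.583, given as a description. Replicate 5 of CD8+4T1+NaAc was the lowest acetate sample for 6 of the 10 genes, and replicate 1 was the highest for 5.

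**Figure D2:**
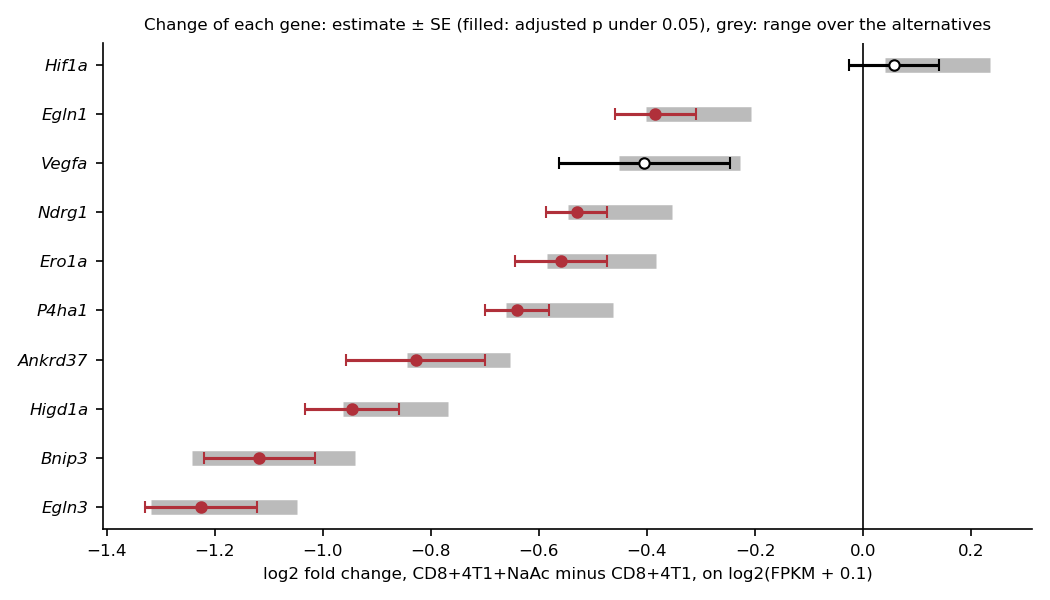
Log2 fold change of each gene on the log2(FPKM + 0.1) scale, CD8+4T1+NaAc minus CD8+4T1, as points with bars of 1 SE, filled where the adjusted p is under 0.05, over grey bands that span the other ways of processing, single samples left out apart. Egln3 and Bnip3 lie beyond -1, and no grey band other than that of Hif1a lies above 0.

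Setting every sample to the same total FPKM moved the median of all genes tested from -0.02 to 0.15, and scaling to 13 T cell markers moved it to the same value. Of the genes called, 48.1% were higher in the values as deposited, 77.9% with the same total and 79.7% with T cell marker scaling. Of the 10 genes, 7 were called lower under either scaling, against 8.83% and 6.94% of all genes tested, and Egln1 was the call that was lost. Their median was -0.42 with the same total and -0.43 with T cell marker scaling. Both scalings move all genes up by a similar amount, smaller than any of the falls among the 10, so no direction could flip under them.

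Transcripts of the T cells and of the tumor cells moved beside the 10 genes. The summed FPKM of 13 T cell markers was between 1367 and 1573 in CD8+4T1 and between 1124 and 1499 in CD8+4T1+NaAc, with 6 of 13 called lower, beside 19.0% of all genes tested, and 7 not called. Cd8a was at 78.6 ± 2.34 and 76.5 ± 4.37 FPKM (SD, n = 5 each) and was not called. Cd3d, Cd3g and Cd3e had log2 fold changes of -0.54, -0.53 and -0.36 (limma adjusted p = 0.0041, 0.0017 and 0.00061). Cd247 was at -0.02 and was not called. The summed FPKM of 20 markers of 4T1 and epithelial cells was between 13.6 and 25.2 in CD8+4T1 and between 88.7 and 231 in CD8+4T1+NaAc, with 7 of the 10 tested called higher, each with a log2 fold change over 1, beside 17.6% called higher and 4.87% called over 1 of all genes tested, and 3 not called. Krt8, a keratin of simple epithelia, went from 3.42 ± 1.69 to 34.2 ± 13.1 FPKM, and Lcn2, a secreted protein that 4T1 cells make, from 3.99 ± 1.47 to 40.2 ± 16.4 FPKM, while Epcam was at 0.519 and 0.699 FPKM and Mal2 was listed at 0 in every sample. The part of tumor cell RNA and of the lower T cell markers in the difference of the 10 genes was not tested.

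Markers of other cell types were uneven, and their few calls stand beside 17.6% called higher and 4.87% called over 1 of all genes tested. Of the 3 myeloid markers tested, Lyz2 was called higher, at 0.536 and 1.12 FPKM, while Cd68, at 25.8 and 22.8 FPKM (log2 fold change -0.17), and Cd14, at 3.21 and 3.89 FPKM (log2 fold change 0.28), were not called. The 11 listed myeloid markers summed to between 25.2 and 34.7 FPKM in CD8+4T1 and between 25.9 and 30.0 FPKM in CD8+4T1+NaAc, most of it Cd68, against 13.6 to 25.2 FPKM for the tumor cell markers in CD8+4T1, and C1qb was at 0 in every sample. Of 4 B cell markers, neither of the 2 tested was called, with Cd79a at 0.961 and 1.06 FPKM and sums of 3.92 to 4.91 and 4.55 to 6.22 FPKM. Cd4 was called higher, at 0.541 and 1.60 FPKM, the single tested gene of 4 for CD4 T and NK cells, whose sums were 0.335 to 0.890 and 1.49 to 1.92 FPKM, with Ncr1 at 0.0227 and 0.0932 FPKM. Pdgfra was called higher, at 0.149 and 1.16 FPKM, the single tested gene of 5 fibroblast markers, whose sums were 0.463 to 0.752 and 1.79 to 2.95 FPKM, with Col1a1 at 0.196 and 0.516 FPKM and Col3a1 at 0 in every sample. The part of these cells in the result was not tested.

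**Figure D3:**
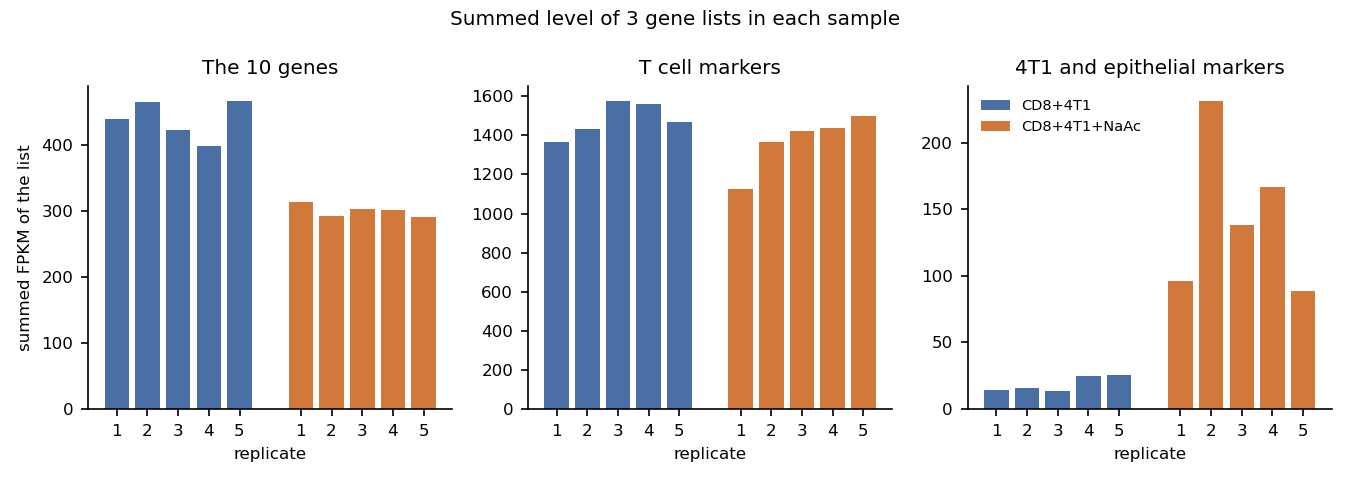
Summed FPKM per sample (bars) of the 10 genes, of the 13 T cell markers and of the 20 markers of 4T1 and epithelial cells, with the replicate number on the horizontal axis and a separate vertical axis from 0 in each panel. The 10 genes sum to between 398 and 466 FPKM without acetate and to between 291 and 314 FPKM with it, while the tumor cell markers sum to more in every acetate sample.

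The ratio to a related gene in the same sample does not change when a sample is rescaled, apart from the effect of the added 0.1. The 6 ratios were each lower in every acetate sample than in every sample without acetate, and each gave p = 0.0079 in a two-sided exact permutation test (n = 5 against 5), the smallest that 252 splits allow, and 0.0079 after Benjamini-Hochberg adjustment over the 6 pairs. Egln3 per Egln1 was at 0.545, 0.714, 0.665, 0.660 and 0.682 in CD8+4T1 and at 0.404, 0.403, 0.366, 0.399 and 0.261 in CD8+4T1+NaAc. This ratio of the hydroxylases differed by -0.84 (SE 0.14) on the log2 scale, so Egln3 fell further than Egln1.

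Bnip3 per Bnip3l, its close relative in mitochondrial autophagy, was at 1.21, 1.47, 1.34, 1.36 and 1.56 in CD8+4T1 and at 0.810, 0.676, 0.642, 0.725 and 0.640 in CD8+4T1+NaAc. Bnip3 was thus the more abundant of the pair in every sample without acetate and the less abundant in every sample with it. The log2 ratio differed by -0.99 (SE 0.09), and Bnip3l itself had a log2 fold change of -0.13 (SE 0.05, limma adjusted p = 0.0729), which became 0.05 with the same total and 0.04 with T cell marker scaling, was called with median-ratio scaling (-0.15, adjusted p = 0.0475) and was called without replicate 1 of CD8+4T1 (over the 10 fits that leave out a sample, the estimates ran from -0.15 to -0.11).

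Ero1a per Ero1b, the isoform known from secretory cells such as those of the pancreas, was at 22.3, 21.6, 20.3, 19.6 and 22.9 in CD8+4T1 and at 11.8, 11.2, 10.6, 8.77 and 7.73 in CD8+4T1+NaAc. The log2 ratio differed by -1.09 (SE 0.12). Ero1b rose from 2.67 ± 0.199 to 3.91 ± 0.451 FPKM (SD, n = 5 each), with a log2 fold change of 0.53 (limma adjusted p = 0.0012).

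Vegfa per Vegfb, a relative that is not driven by hypoxia, was at 5.91, 6.02, 6.15, 5.16 and 5.12 in CD8+4T1 and at 3.48, 2.49, 2.76, 2.66 and 2.69 in CD8+4T1+NaAc. The groups of this ratio were apart although those of Vegfa alone overlapped. The log2 ratio differed by -1.01 (SE 0.10), with Vegfb called higher (log2 fold change 0.60, limma adjusted p = 0.0062).

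Ndrg1 per Ndrg3 ran from 6.48 to 8.53 in CD8+4T1 and from 3.39 to 4.50 in CD8+4T1+NaAc, a difference of -0.88 (SE 0.10) on the log2 scale, and Ndrg3 was called higher (log2 fold change 0.35, limma adjusted p = 0.0038). P4ha1 per P4ha2, the other collagen hydroxylase subunit in this comparison, ran from 5.87 to 9.04 in CD8+4T1 and from 5.27 to 5.79 in CD8+4T1+NaAc, a smaller difference of -0.38 (SE 0.10) with the groups nearly touching. P4ha2, also a HIF target, was called lower at -0.26 (limma adjusted p = 0.0467). That call held in 3 of the 10 fits that leave out a sample. It was lost with the same total (-0.09, limma adjusted p = 0.497) and with T cell marker scaling (-0.09, limma adjusted p = 0.608). The call was also lost with the replicate number as a block (-0.26, limma adjusted p = 0.115).

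**Figure D4:**
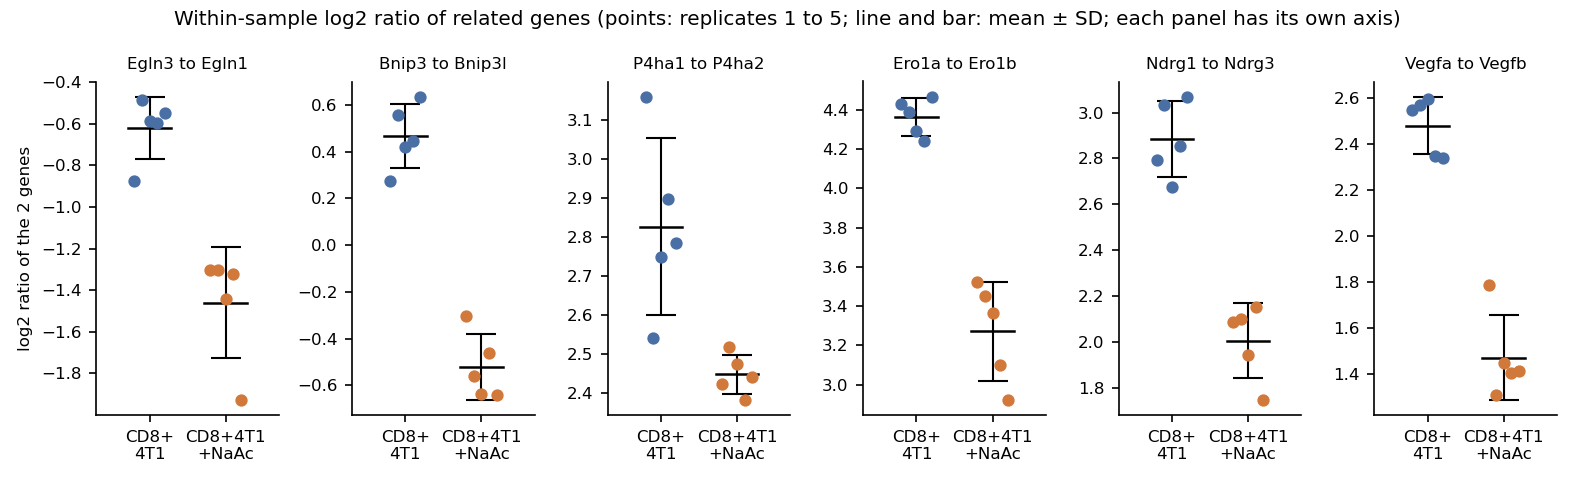
Log2 ratio of the members of 6 gene pairs in each sample, with a line at the mean and bars of 1 SD (n = 5), on a vertical axis of its own in each panel. All 6 ratios are lower in CD8+4T1+NaAc, with the groups nearest to each other for P4ha1 to P4ha2.

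The rest of the pathway was described through 3 gene lists. The HIF machinery list of 18 genes holds the other alpha subunits, Arnt, the hydroxylases Egln2 and Hif1an, the Vhl ligase and cofactors. The hydroxylase genes Egln1 and Egln3, called lower at -0.38 and -1.23, were followed above and are outside this list and its median. Of 17 tested, 4 were called lower and 2 higher, beside 19.0% and 17.6% of all genes tested, with a median of -0.01. With the same total these were 2 lower and 5 higher with a median of 0.17, and with T cell marker scaling 2 lower and 4 higher with a median of 0.16. Of all genes tested, 8.83% were called lower and 31.2% higher with the same total, and 6.94% lower and 27.2% higher with T cell marker scaling, so these counts of the machinery lie near the share over all genes. Rbx1 and Elob, subunits of the Vhl ligase, and Cops5, a subunit of the COP9 signalosome, had log2 fold changes of -0.39, -0.34 and -0.39 (limma adjusted p = 0.0047, 0.0039 and 0.0033), and Elob was not called with the same total (-0.16) or T cell marker scaling (-0.16). Epas1, which encodes the alpha subunit of HIF2, went from 2.24 ± 0.603 to 3.83 ± 0.616 FPKM, a change of 0.76 on the log2 scale (limma adjusted p = 0.0045). Hif3a, a further alpha subunit, went from 0.915 ± 0.201 to 1.44 ± 0.243 FPKM, a change of 0.61 (limma adjusted p = 0.0187), a call that was lost without replicate 4 of CD8+4T1+NaAc (adjusted p = 0.0506). Both are low beside Hif1a.

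The list of other HIF targets held 36 genes outside glycolysis, and 16 of 30 tested were called lower and 4 higher, with a median of -0.26, beside 19.0% lower and 17.6% higher over all genes tested. With the same total 11 were called lower and 7 higher, beside 8.83% and 31.2%, and with T cell marker scaling 9 were called lower and 6 higher, beside 6.94% and 27.2%. The median was -0.085 and -0.087 under these 2 rescalings. Stc2, a secreted stanniocalcin, was at 9.58, 10.8, 9.31, 10.3 and 10.7 FPKM in CD8+4T1 and at 3.11, 3.06, 3.10, 3.11 and 3.43 FPKM in CD8+4T1+NaAc. Its log2 fold change of -1.65 (SE 0.06, limma adjusted p = 6.8e-07) was further from 0 than that of any of the 10 genes. Ak4, a mitochondrial adenylate kinase, fell by 0.93 on the log2 scale (limma adjusted p = 6.5e-05). Edn1, the vasoconstrictor endothelin, was at 1.14 ± 0.351 and 0.531 ± 0.269 FPKM, with a log2 fold change of -1.05 (limma adjusted p = 0.0387), and its call held in 3 of the 10 fits that leave out a sample (adjusted p up to 0.0952) and was lost with the same total (-0.90) and T cell marker scaling (-0.90).

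Some targets of that list went the other way. Ier3, an early response gene tied to cell survival, was at 37.8, 31.8, 35.8, 29.8 and 33.8 FPKM in CD8+4T1, and its mean was 87.0 ± 18.3 FPKM in CD8+4T1+NaAc, with every acetate sample higher (log2 fold change 1.34, limma adjusted p = 5.0e-05). Plod1, a lysyl hydroxylase for collagen, rose from 3.38 ± 0.183 to 4.89 ± 0.424 FPKM, a log2 fold change of 0.52 (limma adjusted p = 0.00039). Bhlhe41, a transcriptional repressor, had a log2 fold change of 0.81 (limma adjusted p = 0.0436) at 0.553 and 1.12 FPKM, and this call held in 3 of the 10 fits that leave out a sample (adjusted p up to 0.0882).

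The glycolytic list held 19 targets, from glucose uptake to lactate export, all of them tested. Of these, 14 were called lower and 1 higher, with a median of -0.48, beside 19.0% lower and 17.6% higher over all genes tested. With either rescaling 12 were called lower and 1 higher, beside 8.83% lower with the same total and 6.94% with T cell marker scaling, and the median was -0.30 under both. Gapdh, which belongs to this list and was not called, has 255 listed pseudogenes that may hold its reads, so its value is uncertain. Pfkp, an isoform of phosphofructokinase, fell from 75.3 ± 4.42 to 45.2 ± 1.60 FPKM, a log2 fold change of -0.73 (limma adjusted p = 1.2e-05). Slc2a3, a glucose transporter, fell from 101.3 ± 8.30 to 62.1 ± 4.06 FPKM (-0.70, limma adjusted p = 4.6e-05), and Ldha, which makes lactate from pyruvate, from 805 ± 66.5 to 505 ± 36.1 FPKM (-0.67, limma adjusted p = 8.7e-05). Pfkfb4, which sets the level of an activator of phosphofructokinase, was the gene called higher, from 3.18 ± 0.136 to 5.37 ± 0.392 FPKM (0.74, limma adjusted p = 3.4e-05).

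**Figure D5:**
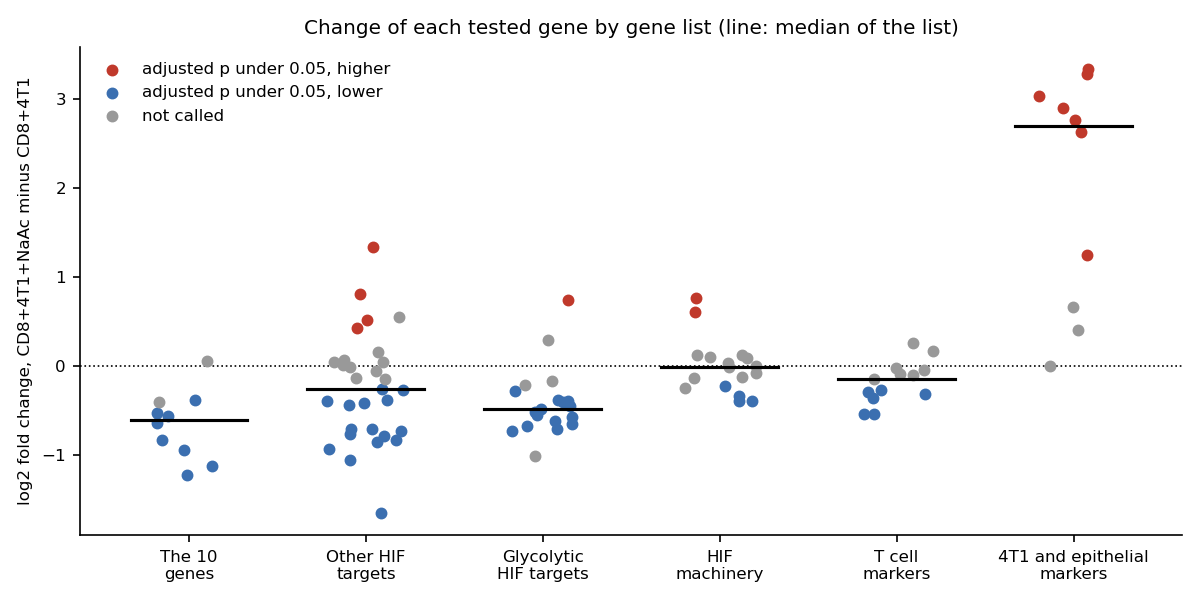
Log2 fold change of each tested gene (points) in 6 lists, CD8+4T1+NaAc minus CD8+4T1, coloured by the call at an adjusted p under 0.05, with a line at the median of the list. The 10 genes and the glycolytic list lie mostly under 0, with medians of -0.60 and -0.48 (-0.42 and -0.30 with the same total), the HIF machinery is centred at -0.01 (0.17 with the same total), and the markers of 4T1 and epithelial cells lie far above.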

How the data were processed

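RNA from 5 CD8+4T1 and 5 CD8+4T1+NaAc samples was compared. The authors deposited FPKM per gene and sample, not pooled, and a gene length as an other, unnormalized column. The submitters' processing notes name fastp, HISAT2 2.0.5, StringTie 1.3.3b and featureCounts 1.5.0-p3, and the study's methods name DESeq2 for testing. The genome build, the annotation and the strand setting are not given in the sources used here, so the positions in the deposited table are not printed. Promoter windows come from RefSeq on GRCm38.p6, matched by gene symbol.

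FPKM are not counts, so DESeq2 was not applied here. The product of FPKM and gene length moved in equal steps, 1 per fragment, in 100% of values (tolerance 0.1 of a step), which gave the fragments behind each gene. The test was limma 3.58.1 (R 4.3.3), fitted at once to log2(FPKM + 0.1) of every gene whose average across the 10 samples reached 0.5 FPKM, with the trend and robust options on. Because FPKM are relative to the whole library, a change in other RNA shifts every gene, and 2 rescalings were run for that reason. The pair ratios were compared with exact permutation tests in Python 3.11.15, and matplotlib 3.10.9 drew the figures. Simulated counts with known changes were used to check the limma fit, and no outcome of that check is given or used here.

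The 10 genes, the gene lists and the pairs were chosen with earlier results of these data known. Named beyond the 10 genes and their pair partners were, from each of the 3 HIF lists, called genes with an absolute log2 fold change over 1, filled up to 3 per direction with the largest called ones, and fixed cell markers. Alternatives were pseudocounts of 1 and 0.01, no filter, a filter at 5 FPKM, the same total, median-ratio scaling, scaling to T cell markers, plain limma, the replicate number as a block, protein-coding genes alone, an adjusted p under 0.01, voom on fragments and leaving out samples. The stricter p for the 3 lists and the ratios to Hif1a were chosen after seeing the data.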

Additional observations from a re-analysis of the deposited data

Results flagged for a closer look

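Of 32 sets of 5 values checked for a sample far from the others (the log2 levels of the 10 genes and the log2 ratios of the 6 pairs in each group), 4 were picked out, where chance alone gives about 1.6. The gap of that sample to its nearest neighbour is given as a share of the whole range of its group. Vegfa in CD8+4T1 had replicate 1 highest, with a share of 0.813, and P4ha1 in CD8+4T1+NaAc had replicate 1 highest, with a share of 0.753. The Egln3 to Egln1 ratio had replicate 1 lowest in CD8+4T1, with a share of 0.712, and replicate 5 lowest in CD8+4T1+NaAc, with a share of 0.778. Replicate 1 of CD8+4T1 had 22291 genes above 0 and replicate 1 of CD8+4T1+NaAc had 20233, the fewest of their groups.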

How the results depend on the processing

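Of the 10 genes, Egln3, Bnip3, Higd1a, Ankrd37, P4ha1, Ero1a and Ndrg1 kept their direction and their call under all 22 alternatives that refit them. Egln1 was not called with the same total (-0.21) or with scaling to T cell markers (-0.21). Vegfa was called with the replicate block (-0.40), among protein-coding genes alone (-0.40) and without replicate 1 of both groups (-0.45), and ran from -0.53 to -0.30 when single samples were left out, called without replicate 1 of CD8+4T1+NaAc. Hif1a ran from -0.0022 to 0.10 in those fits, with its sign turned without replicate 4 of CD8+4T1 (limma adjusted p = 0.985), and was at 0.23 under both rescalings (limma adjusted p = 0.0552 and 0.0672). Vegfa was at -0.23 under both, and Bnip3 at -0.94. The median of the 10 genes was -0.42 with the same total and -0.43 with T cell marker scaling. The cause of these changes was not tested.

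Over all genes, 5742 were called, 3733 with the filter at 5 FPKM and 3702 at an adjusted p under 0.01. With an absolute log2 fold change over 1, 1016 were called, 476 with a pseudocount of 1 and 203 with the filter at 5 FPKM, which tests fewer genes. Of all genes tested, 1257 of 7800 were called higher with the filter at 5 FPKM, and 2369 to 3408 of 15710 when single samples were left out. The shares for the same total are 31.2% higher and 8.83% lower, and those for T cell marker scaling 27.2% and 6.94%. Each count that follows is to be set beside the share of its own setting. For an adjusted p under 0.01, no share per direction is given. For the HIF machinery, the calls were 5 higher and 2 lower with a median of 0.17 under the same total, 4 higher and 2 lower with a median of 0.16 under T cell marker scaling, 0 higher with the filter at 5 FPKM, 1 higher at an adjusted p under 0.01, and 1 to 2 higher when single samples were left out. For the other HIF targets, the median was -0.13 without a filter, -0.32 with the filter at 5 FPKM (2 higher), -0.085 with the same total (7 higher), -0.087 with T cell marker scaling (9 lower) and -0.30 without replicate 1 of both groups, with 2 higher at an adjusted p under 0.01 and 2 to 5 higher when single samples were left out. For the glycolytic targets, 0 were higher with the filter at 5 FPKM, and the median was -0.30 under both rescalings.

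Across genes, the deviations of same-numbered samples correlated at -0.03 to 0.07 over the 5 numbers, and those of samples with unlike numbers at -0.05 to 0.08. No source says what a number marks, and the main fit had no block because the methods name none. Replicate 1 nevertheless stood apart on the same side in both groups, with the fewest genes above 0 and the lowest share of fragments in listed genes (95.5% and 89.8%), T cell marker sum (1367 and 1124 FPKM) and glycolytic sum (4067 and 2815 FPKM). With the number as a block, limma called 9 of the 10 genes lower, beside 2848 of all 15710 genes tested lower and 2551 higher. In the paired form of the pair ratios, exact sign flips gave p = 0.0625 for each of the 6, the smallest that 5 pairs allow, at -0.84 for Egln3 to Egln1, -0.99 for Bnip3 to Bnip3l, -0.38 for P4ha1 to P4ha2, -1.09 for Ero1a to Ero1b, -0.88 for Ndrg1 to Ndrg3 and -1.01 for Vegfa to Vegfb. Ankrd37 rests on the fewest fragments of the 10 genes, 77 to 223 per sample.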

Other observations

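A further 5 HIF targets were picked out of the lists after their values were seen, so they are given as values. Fam162a, a mitochondrial protein, was at 330.2 ± 12.8 FPKM in CD8+4T1 and 192.9 ± 20.7 FPKM in CD8+4T1+NaAc (SD, n = 5 each). Pdk1, the kinase that holds back pyruvate dehydrogenase, was at 9.65 ± 0.383 and 5.78 ± 0.332 FPKM. Ddit4, an inhibitor of mTORC1, was at 324.6 ± 34.2 and 198.4 ± 20.02 FPKM. The demethylase gene Kdm3a was at 25.3 ± 0.464 and 15.6 ± 2.28 FPKM, and Jmjd6, another oxygen-dependent enzyme, was at 28.9 ± 1.89 and 16.2 ± 1.06 FPKM. In the whole list of other HIF targets, the groups were apart with acetate lower for 13 of the 30 genes tested and with acetate higher for 4, beside 13.3% and 13.1% of all genes tested.

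Gapdh, the glycolytic dehydrogenase often used as a reference transcript, was uneven between samples of the same group. It was at 44.9, 10.7, 10.7, 35.4 and 70.7 FPKM in CD8+4T1 and at 8.70, 8.98, 60.6, 8.54 and 9.31 FPKM in CD8+4T1+NaAc, while Pgk1, the next enzyme of the pathway, was at 794 ± 52.4 and 572 ± 55.5 FPKM (SD, n = 5 each). The groups of Gapdh overlapped. Listed with the protein annotation of Gapdh were 255 pseudogenes. Their summed FPKM was between 760 and 1039 in CD8+4T1 and between 739 and 808 in CD8+4T1+NaAc, far above the gene itself. Whether reads of Gapdh were counted under these pseudogenes was not tested, so its value here is uncertain.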
